A study of Mus musculus with 4 samples.

Results

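Neuregulins and heparin-binding EGF-like growth factor are ligands of the EGF family, and EGFR and the ErbB proteins are their receptors. The 9 genes described here are the ligand genes Nrg1, Nrg2, Nrg3, Nrg4 and Hbegf and the receptor genes Egfr, Erbb2, Erbb3 and Erbb4. They were taken by symbol from the 27998 genes of the deposited tables, 5 ligands and 4 receptors, and each symbol occurred. Nuclei were isolated from right ventricles (RVs) of wild-type C57/BL6J mice at P21. The mice had undergone surgery at P7, either a fistula between the abdominal aorta and the inferior vena cava, which gives right ventricular volume overload (RVVO), or the same operation without the puncture (sham). There were 2 sham and 2 RVVO libraries, named sham 1, sham 2, RVVO 1 and RVVO 2, and lists of 4 values follow this order. The sources do not say how many mice went into a library, so p-values measure only the spread between libraries, which may be technical.

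Ligands of this family bind receptor tyrosine kinases that act in pairs. ErbB4 and ErbB3 bind neuregulins, EGFR binds HB-EGF, EGF and TGF-alpha, and ErbB2 binds no ligand and serves as the partner of the others. ErbB3 has little kinase activity of its own, so it signals through its partner. In the heart, Nrg1 from the endocardium acts on ErbB2 and ErbB4 of cardiomyocytes (CMs) and is needed for trabeculation, and in peripheral nerve Nrg1 acts on ErbB2 and ErbB3 of Schwann cells.

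Among the receptors, Erbb3 encodes a different residue at one position within the catalytic loop of the kinase. The stretch below is the coding sequence of the catalytic loop in GRCm38, read from GENCODE transcripts, with its sixth codon in capitals, because this codon differs in Erbb3. It is shown because the account of the receivers below turns on which receptor a class of nuclei held.
Egfr: caccgtgacttggcaGCCaggaat
Erbb2: cacagggacctagctGCCcgaaac
Erbb3: catagggaccttgcgCTCcggaat
Erbb4: catcgggatctggcaGCCcgcaat
The stretches lie at chr11:16904338-16904361 (plus strand), chr11:98434247-98434270 (plus), chr10:128572533-128572556 (minus) and chr1:68080739-68080762 (minus), each within 1 coding exon. Of the 24 bases, 8 differed from Egfr in Erbb2, 9 in Erbb3 and 6 in Erbb4. In Erbb2 and Erbb4 the changed bases leave the encoded amino acids the same as in Egfr. In Erbb3 only the codon in capitals encodes another amino acid.

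In GRCm38 the ligand genes lie at chr8:31814551-32884029 (Nrg1), chr18:36017652-36197380 (Nrg2), chr14:38368952-39473088 (Nrg3), chr9:55220222-55326844 (Nrg4) and chr18:36504927-36515805 (Hbegf), all on the minus strand. The receptor genes lie at chr11:16752203-16918158 (Egfr) and chr11:98412470-98437716 (Erbb2) on the plus strand, and at chr10:128567523-128589652 (Erbb3) and chr1:68032186-69108059 (Erbb4) on the minus strand. Genes on the other strand that are also in the tables overlap Nrg1 (Gm26578), Nrg3 (Nrg3os, Gm20641 and Gm20642), Nrg4 (Fbxo22), Egfr (Egfros) and Erbb2 (Mien1). The sources do not say whether strand was used in counting, so reads of these partners could not be told apart from reads of the member if it was not.

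The libraries held 53090 barcodes and between 51010039 and 64739206 UMIs each. After filters 43180 nuclei remained, and 33457 of them fell into 13 classes by lists of marker genes, and each name means only that the nuclei were like that cell type. The other 9723 nuclei were left unnamed, 31.4%, 22.6%, 21.6% and 14.1% of the libraries. Both sham libraries held Xist (1475 and 1486 CPM over all nuclei) and almost no Uty, and both RVVO libraries held Uty (322 and 317 CPM) and almost no Xist, so sex and surgery cannot be told apart. Pairs of libraries shared 28 to 70 barcodes. The libraries also differed in tissue: a CM cluster led by Fgf12, Ryr3 and Mybphl had 1, 131, 24 and 165 nuclei, and the adipocyte class had 0, 40, 2 and 46. Levels are given as CPM, counts scaled to the same total, from the UMIs of a gene summed over the nuclei of a class in a library, over all UMIs of those nuclei. Means over libraries use those with at least 20 nuclei of the class.

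Each ligand and receptor had its own pattern across classes. Nrg1 was an endocardial transcript, Nrg2 was found in epicardial nuclei and macrophages, Nrg4 in adipocytes and CMs, Erbb4 in CMs, Egfr in fibroblasts, pericytes and several other classes, and Erbb3 in glia. Nrg3, Hbegf and Erbb2 were low in every class, with no mean above 32.7 CPM. Classes were clustered from the same nuclei, although without the 9 genes, so the levels are descriptions and no class was tested against another.

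**Figure D1:**
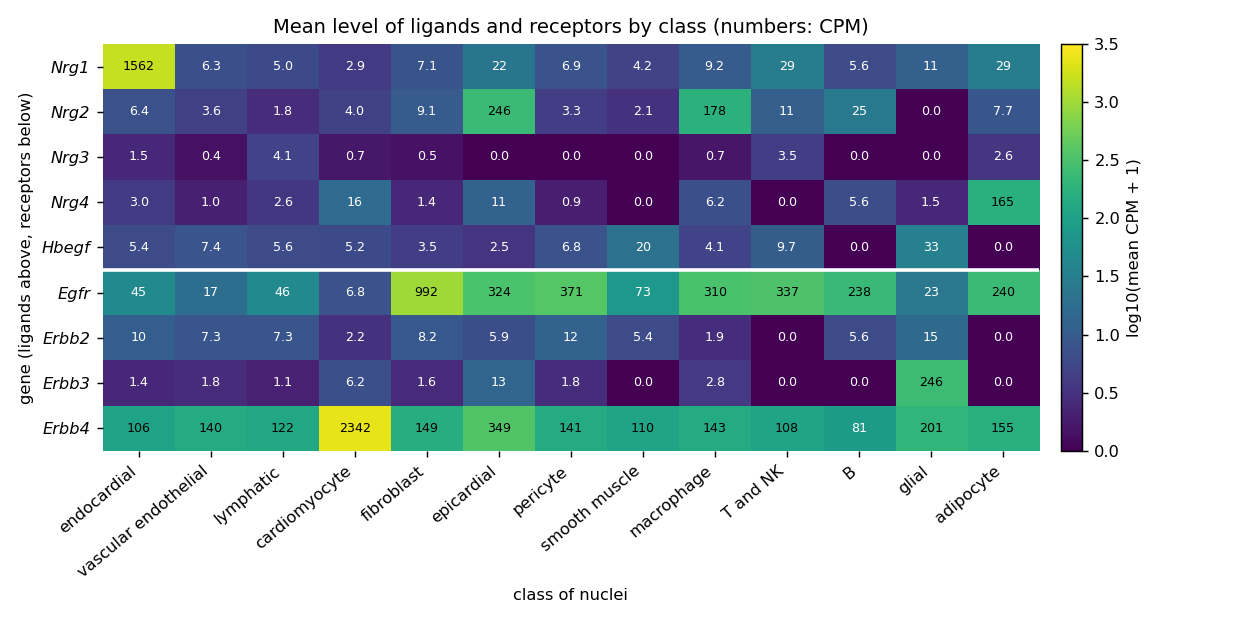
Mean CPM of the 9 genes (rows, ligands above the white line) in the 13 classes of nuclei (columns), with colour on a log10(mean CPM + 1) scale and the mean CPM written in each field. Nrg1 stands at 1562 CPM in the endocardial class and at most 29 elsewhere, and Erbb4 at 2342 CPM in CMs.

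Nrg1, the neuregulin that CMs receive from the endocardium, was measured at 1759.9, 2098, 1215 and 1174 CPM in endocardial nuclei, a mean of 1562 ± 446 (SD, n = 4). The class with the next highest mean was adipocytes with 29.3 ± 23.5 (SD, n = 2), and the means of 12 other classes lay between 2.95 and 29.3 CPM. The ranges of the endocardial libraries and of the next class did not overlap, and the ratio of these means was 53.3. Endocardial nuclei held 91.5%, 92.8%, 90.4% and 88.7% of all Nrg1 UMIs of named nuclei, although they numbered 280, 263, 287 and 533.

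The endocardial class was 1 cluster, and the labels of its nuclei rested on Npr3, Tmem108 and 3 further markers. A cluster of 56 nuclei led by Nrg1, Tmem108, Vwf and Npr3 was left unnamed, since no class reached the level for a name. Its nuclei are therefore in none of the class levels, shares or tests. At least 1 UMI of Npr3 or Tmem108 was found in 97.9%, 95.4%, 97.9% and 96.6% of nuclei of the endocardial class and in 4.30%, 4.76%, 10.1% and 10.4% of vascular endothelial nuclei. When every endothelial nucleus with such a UMI was called endocardial instead, Nrg1 stood at 1209, 1425, 858 and 925 CPM in that group and at 6.36, 4.75, 7.56 and 10.3 CPM in the other endothelial nuclei. In the vascular endothelial class as clustered, Nrg1 stood at 6.43, 4.62, 6.25 and 7.76 CPM, and its 4 clusters in each library, of which 1 had the arterial genes Sema3g and Gja5 among its leading genes, ranged from 3.16 to 13.6 CPM, each from at most 24 UMIs. Lymphatic nuclei had a mean of 5.02 ± 5.48 CPM (SD, n = 4). Under either rule the endocardium thus stood above the other endothelial groups in each library.

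Within the endocardium Nrg1 was spread unevenly. After each nucleus was thinned to 1000 UMIs, a Nrg1 UMI was found in 39.7% (95% exact binomial interval 33.8 to 45.8), 34.9% (29.0 to 41.2), 34.97% (29.4 to 40.8) and 32.1% (28.1 to 36.2) of endocardial nuclei. Without thinning the shares were 49.6%, 44.5%, 49.1% and 41.8%, at median depths of 2704, 2793, 4037 and 2683 UMIs. Intervals cover counting error only. Npr3, which had a similar mean level, was found in 60.7%, 62.7%, 64.3% and 60.6%. In a second draw of the thinning, the 10% of nuclei with the most Nrg1 held 63.0%, 64.2%, 59.6% and 67.7% of its thinned UMIs, against 34.9%, 35.5%, 34.4% and 39.7% for Npr3 and 28.5%, 30.4%, 29.6% and 29.97% for Tmem108. The highest nucleus had 27, 25, 17 and 19 Nrg1 UMIs per 1000. In vascular endothelial nuclei 0.651%, 0.461%, 0.355% and 1.11% had a Nrg1 UMI at this depth, so the share in the endocardium lay above that background in each library.

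Endocardial nuclei with 5 or more Nrg1 UMIs per 1000 numbered 35, 38, 22 and 52, and those with none 164, 161, 186 and 369. The nuclei were split by Nrg1 itself, so the following levels are descriptions. Tmem108 stood at 4090, 4297, 3801 and 4276 CPM in the first set and at 2416, 2320, 2140 and 2294 CPM in the second, and the 2 ranges did not overlap. Hmcn1, a matrix protein gene, stood at 4583, 4173, 3069 and 5655 CPM against 3259, 2906, 2657 and 3598 CPM. Npr3, a natriuretic peptide receptor, was also higher in each library, at 1489.8, 1669, 2167 and 1409 CPM against 1315, 1259.96, 1548 and 1239.9 CPM. Pecam1 was lower in each library, at 1309.5, 1183, 1384 and 1397 CPM against 1707, 1832, 2069 and 1774 CPM. Other endothelial genes did not follow it. Cdh5 stood at 161, 210, 201 and 247 CPM against 209.8, 262, 166 and 200.5 CPM, lower in both sham and higher in both RVVO libraries. Vwf stood at 1822, 2874, 2638 and 2668 CPM against 1911, 1614, 2201 and 1928 CPM, lower only in sham 1. Adgrg6, another marker of the class, was higher in each library, at 218, 254, 140.4 and 102 CPM against 93.5, 119.996, 117 and 88.5 CPM. Cytl1, also a marker of the class, stood at 93.5, 96.0, 93.5 and 81.9 CPM in the second set and at most at 28.5 CPM in the first, where 3 UMIs amount to 18.1 to 30.1 CPM. Ryr2, which marks CM transcripts, stood at 644 to 983 CPM in the first set and 729 to 1062 CPM in the second. Of the 5 endocardial markers, Tmem108, Hmcn1, Npr3 and Adgrg6 were thus higher in each library where Nrg1 was high. Cytl1 went the other way and was lower there in each library, at about the level of 3 UMIs or below.

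Nrg1 in endocardial nuclei was lower in both RVVO libraries than in both sham libraries, with means of 1195 ± 29.2 and 1929 ± 239 CPM (SD, n = 2 each), a ratio of 0.619. edgeR's quasi-likelihood test gave a log2 fold change of -0.71 with SE 0.19, an unadjusted p of 0.00392 and an adjusted p of 0.620 over 9505 genes, so the difference did not pass the threshold of 0.05. Of these genes 0.0736% were called. With the endocardium set by Npr3 or Tmem108 UMIs the log2 fold change was -0.59. Without the filter on low counts the adjusted p was 0.0124 (edgeR). In that setting 118 of 17448 genes were called, against 7 of 9505 in the main test, so far more of all genes passed. Over all alternatives the log2 fold change ranged from -0.83 to -0.54. The thinned level was 1.81, 1.85, 1.15 and 1.13 UMIs per 1000, and the number per nucleus with a UMI was 4.56, 5.13, 3.29 and 3.66. The markers of the class did not move in the same way: Npr3 stood at 1458, 1415, 1607 and 1331 CPM and Tmem108 at 2722, 2934, 2601 and 2871 CPM, and the sum of the 5 endocardial markers was 7815, 7831, 7073 and 8380.5 CPM. Per 100 Npr3 UMIs there were 121, 148, 75.6 and 88.2 Nrg1 UMIs. The CM markers in endocardial nuclei summed to 18593, 11021, 15546 and 14518 CPM, the macrophage markers to 73.8, 78.3, 128 and 140.4 CPM and the fibroblast markers to 969.5, 1175, 1209 and 1417 CPM. The last 2 sums were higher in both RVVO libraries than in both sham libraries, and their part in the result was not tested.

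In vascular endothelial nuclei Nrg1 had a log2 fold change of 0.27 with SE 0.31 (adjusted p = 0.999, edgeR). The test of the difference between the 2 endothelial classes, with the library as a block, gave -0.99 with SE 0.30, an unadjusted p of 0.00246 and an adjusted p of 0.731 over 12457 genes, of which 0.0562% were called. It did not pass the threshold. It passed with the endocardium set by Npr3 or Tmem108 UMIs, at -1.20 with an adjusted p of 0.00222. The share of all genes called under that rule is not given here. Without sham 1 the difference was -1.41. In the same kind of test between CMs and fibroblasts, in which 0.0199% of 15043 genes were called, no member passed, and Hbegf differed by 0.68 with SE 0.45 (adjusted p = 0.999). In CMs Nrg1 was at 3.39, 1.80, 3.05 and 3.54 CPM, from 30 to 84 UMIs.

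**Figure D2:**
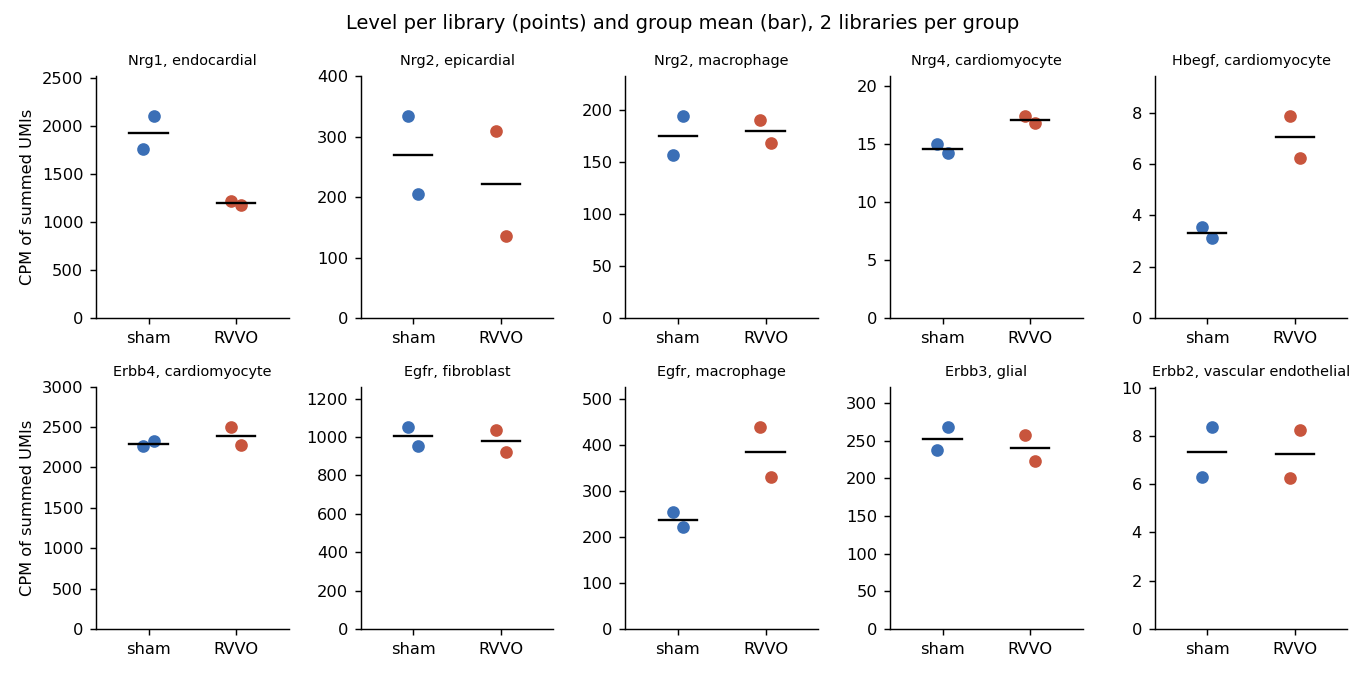
CPM of 10 pairs of gene and class in each library (points) with the mean of each group (black line), each panel with an axis from 0. In the endocardial Nrg1 panel both RVVO points (1215 and 1174 CPM) lie under both sham points (1759.9 and 2098 CPM), and in the panel of Erbb4 in CMs the points of both groups overlap.

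Nrg2, another neuregulin, was found in epicardial nuclei at 333, 206, 309 and 136 CPM and in macrophages at 157, 194, 191 and 169 CPM. The libraries of these 2 classes overlapped, and the next class, B cells, had a mean of 25.3 ± 20.03 CPM (SD, n = 2). After thinning, a Nrg2 UMI was found in 21.3%, 13.2%, 22.8% and 10.54% of epicardial nuclei and 11.6%, 13.5%, 15.8% and 11.6% of macrophages, against 0.293%, 0.231%, 0.284% and 0.590% of vascular endothelial nuclei. Epicardial nuclei held 34.4%, 37.2%, 38.5% and 35.2% of the Nrg2 UMIs of named nuclei, and macrophages 39.2%, 31.5%, 30.4% and 38.5%. Between RVVO and sham the log2 fold change was -0.26 with SE 0.45 in epicardial nuclei and 0.01 with SE 0.19 in macrophages (edgeR, adjusted p = 0.9995 and 0.998).

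Some of the Nrg2 of CMs came from the cluster led by Fgf12, Ryr3 and Mybphl. In all CMs Nrg2 was at 1.84, 6.49, 3.41 and 4.09 CPM. This cluster, which held almost no nuclei of sham 1, had 108, 134 and 59.4 CPM in sham 2, RVVO 1 and RVVO 2. It held 69 of 108, 31 of 76 and 43 of 97 Nrg2 UMIs of CMs in those libraries. Without it the CM level was 1.84, 2.44, 2.04 and 2.35 CPM, so the libraries lay closer together than with it.

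Nrg3, a neuregulin best known from brain, was near 0 in each class, and its highest mean was 4.06 ± 5.63 CPM in lymphatic nuclei (SD, n = 4). Nrg4, a neuregulin known as a secreted product of brown fat, was highest in adipocytes, at 158 and 171 CPM in sham 2 and RVVO 2, the libraries with at least 20 such nuclei. CMs followed with 14.96, 14.2, 17.4 and 16.8 CPM, and because they were many they held 89.0%, 80.8%, 90.0% and 84.3% of the Nrg4 UMIs of named nuclei. After thinning, 1.87%, 1.33%, 1.48% and 1.52% of CMs had a Nrg4 UMI, against 0.0651%, 0.0988%, 0.0711% and 0.131% of vascular endothelial nuclei. The RVVO values of CMs were above the sham values, but the difference was 0.17 on the log2 scale with SE 0.15 and an adjusted p of 0.940 (edgeR).

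Hbegf, a ligand of EGFR and ErbB4 that is made as a membrane precursor, was low in every class. Its highest means were in glia, at 32.7 ± 15.2 CPM (SD, n = 4), and smooth muscle, at 20.2 ± 6.15 CPM (SD, n = 3), both from few nuclei. Vascular endothelial nuclei had 6.30, 5.78, 8.26 and 9.21 CPM. In CMs it was measured at 3.54, 3.12, 7.86 and 6.24 CPM from 48, 52, 175 and 148 UMIs. The RVVO values were thus above the sham values without overlap, and the ratio of the means was 2.12. With 2 libraries a group, such separation can arise without a difference between the groups. The log2 fold change was 1.03 with SE 0.26, an unadjusted p of 0.00761 and an adjusted p of 0.818 over 14413 genes (edgeR), so it did not pass the test. Of these genes 0.0486% were called. Over all alternatives the log2 fold change ranged from 0.83 to 1.22 and the adjusted p from 0.256 to 0.983. In vascular endothelial nuclei the log2 fold change was 0.47 with SE 0.25 (adjusted p = 0.944). The endothelial markers in CMs summed to 179, 128, 131 and 132 CPM, so they were not higher in the RVVO libraries than in both sham libraries, while the fibroblast markers summed to 237, 247, 335 and 535 CPM and were higher in both RVVO libraries. The part of the latter in the result was not tested.

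Erbb4, the neuregulin receptor of CMs, was measured there at 2264, 2323, 2502.5 and 2281 CPM, a mean of 2342 ± 109 (SD, n = 4). CMs held 95.2%, 92.2%, 96.2% and 95.9% of its UMIs in named nuclei. After thinning, 81.6%, 82.0%, 84.9% and 82.6% of CMs had an Erbb4 UMI. The next class, epicardial nuclei, had 193, 506, 331 and 366 CPM, and the ranges of the 2 classes did not overlap. RVVO and sham did not separate: the log2 fold change in CMs was 0.01 with SE 0.14 and an adjusted p of 0.996 (edgeR), so the receptor level stood within its spread between libraries.

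Most other classes held Erbb4 at 81.0 to 201 CPM, and their level was set beside Ryr2, the calcium release channel of CMs, whose UMIs were found in each of these classes. CMs had 13.7, 12.04, 12.7 and 15.1 Erbb4 UMIs per 100 Ryr2 UMIs. Vascular endothelial nuclei had 9.73, 13.3, 11.9 and 12.2, endocardial nuclei 11.1, 13.5, 13.3 and 13.6, and macrophages 11.5, 12.995, 10.3 and 12.8. The ratios of vascular endothelial nuclei, endocardial nuclei and macrophages lay near that of CMs or below it. Other classes, with fewer UMIs, went above it in some libraries. Glia had 6.74, 19.8, 16.4 and 16.9, from 12, 44, 25 and 10 Erbb4 UMIs, and were below CMs only in sham 1. Adipocytes had 32 in RVVO 2 and lay below CMs in sham 2. T and NK cells had 20.5 in RVVO 1 and lay below CMs in RVVO 2. Lymphatic nuclei were above CMs only in sham 2, at 16.6. After thinning, 9.13% to 12.2% of endocardial nuclei had an Erbb4 UMI. The part of CM transcripts in the Erbb4 of these classes was not tested. Epicardial nuclei had 27.1, 52.8, 15.2 and 49.0 and were above the CM ratio in each library, most of all in sham 2 and RVVO 2. In the CM cluster led by Fgf12, Ryr3 and Mybphl, which had its nuclei mainly in those 2 libraries, the ratio was 29.2 in sham 2, 24.7 in RVVO 1 and 41.2 in RVVO 2. Sham 1 had 1 nucleus of this cluster, and its epicardial ratio was 27.1 against 13.7 in CMs. The part of this cluster in the Erbb4 of other classes was not tested. Fibroblasts had 11.8, 22.6, 12.4 and 15.8, above the CM ratio in sham 2 and RVVO 2.

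**Figure D3:**
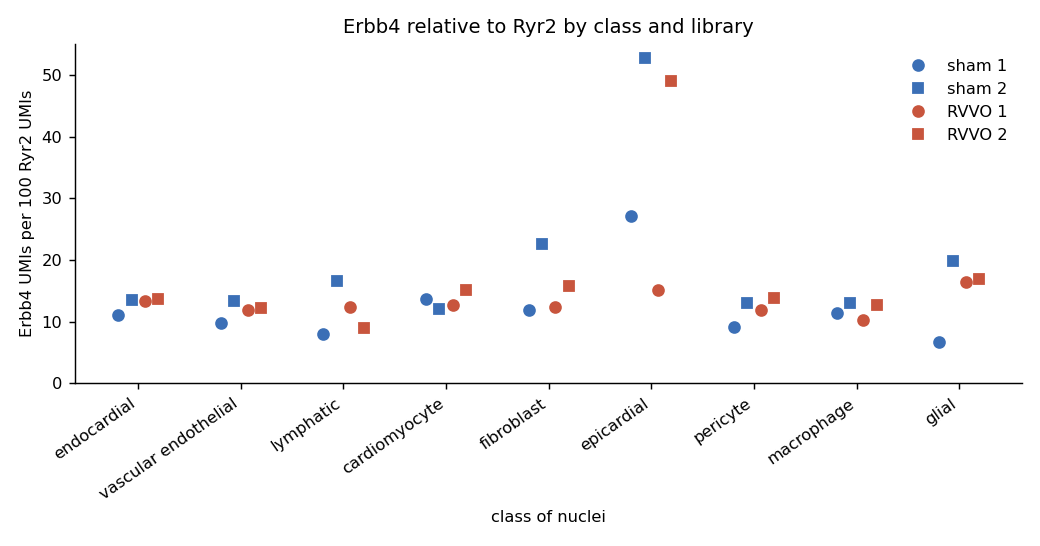
Erbb4 UMIs per 100 Ryr2 UMIs in the 9 classes with at least 20 nuclei in every library, with a point for each library (blue sham, red RVVO). The 8 classes other than the epicardial one lie between 6.74 and 22.6, with CMs at 12.04 to 15.1, and epicardial nuclei reach 52.8.

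The same CM cluster had more Erbb4 than the others. It had 5343, 4073 and 6125 CPM in sham 2, RVVO 1 and RVVO 2, from 131, 24 and 165 nuclei, while the 4 other CM clusters ranged from 1607 to 2599 CPM. The range of this cluster did not overlap with that of the others. Ryr2 did not set it apart, at 18279, 16494 and 14861 CPM. The lowest Erbb4 was in the cluster led by Sema3a, Drd2 and Ephb1, at 2036, 1607, 2217.5 and 1960.2 CPM. Without the cluster led by Fgf12, CMs had 2264, 2202, 2486 and 2159.7 CPM of Erbb4.

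**Figure D4:**
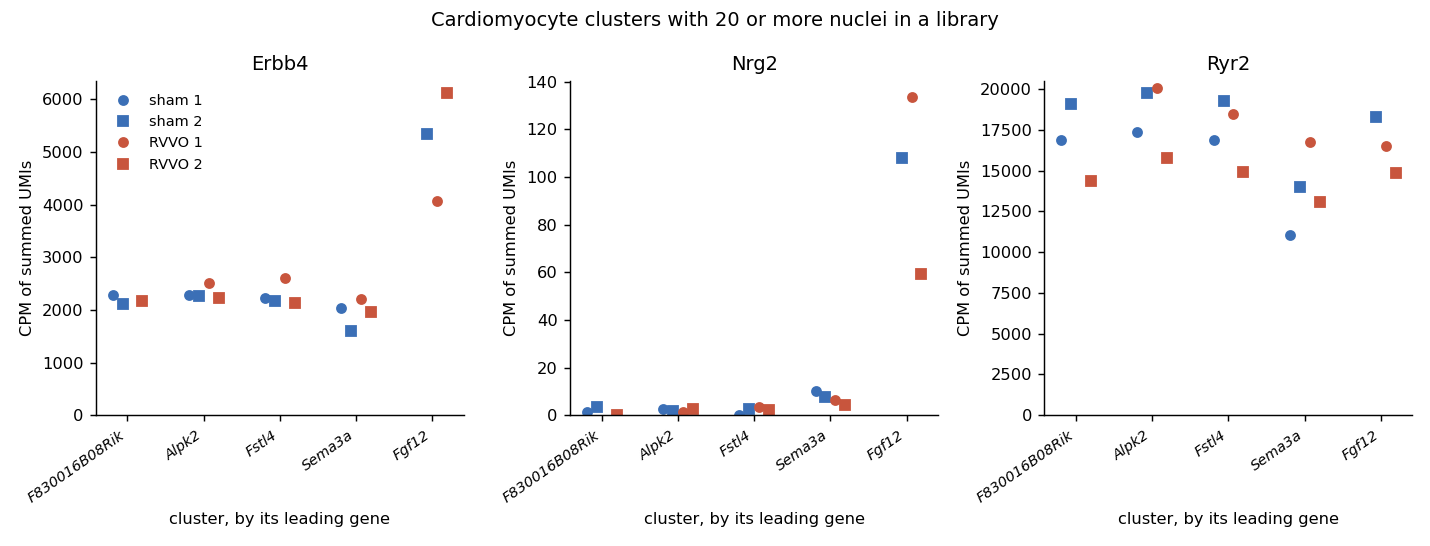
CPM of Erbb4, Nrg2 and Ryr2 in the 5 CM clusters, named by their leading gene, with a point for each library that had at least 20 nuclei in the cluster (blue sham, red RVVO). The Fgf12 cluster lies at 4073 to 6125 CPM of Erbb4 and 59.4 to 134 CPM of Nrg2, above the other clusters, while its Ryr2 lies among theirs.

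Erbb2, the partner receptor without a ligand, was low throughout. CMs had 2.14, 1.74, 2.11 and 2.74 CPM from 29 to 65 UMIs, whereas vascular endothelial nuclei had 6.30, 8.37, 6.25 and 8.24 CPM, fibroblasts a mean of 8.22 ± 1.45 CPM and pericytes 11.7 ± 1.73 CPM (SD, n = 4 each). CMs thus had a lower CPM of Erbb2 than these 3 classes in each library, although they are the class in which its partner Erbb4 was highest. After thinning, 0.312%, 0.229%, 0.254% and 0.368% of CMs had an Erbb2 UMI, against 0.456%, 0.988%, 0.640% and 1.05% of vascular endothelial nuclei. Without thinning the shares were 1.25%, 1.10%, 1.99% and 1.45% against 1.54%, 1.75%, 1.92% and 2.16%, so CMs were higher in RVVO 1. The median depths were 5180, 5343, 8309.5 and 4566 UMIs in CMs against 2156, 1899, 2875 and 2305.5. The lower level of CMs thus holds relative to all UMIs of a nucleus and less so per nucleus. The log2 fold change between RVVO and sham was 0.27 with SE 0.31 in CMs and -0.08 with SE 0.28 in vascular endothelial nuclei (edgeR, adjusted p = 0.965 and 0.999).

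Erbb3, the receptor with the changed codon shown above, was a glial transcript, at 237, 268, 257 and 222 CPM, a mean of 246 ± 20.5 (SD, n = 4). These values rest on 39, 45, 20 and 15 UMIs, since only 69, 98, 25 and 29 nuclei were glial. Epicardial nuclei followed with 12.9 ± 8.81 CPM and CMs with 6.19, 5.77, 7.41 and 5.40 CPM, and neither overlapped with glia. Because CMs were many, they held 53.5%, 55.8%, 74.7% and 72.7% of the Erbb3 UMIs of named nuclei, and glia 24.8%, 26.2%, 9.05% and 8.52%. After thinning, 16.4%, 27.5%, 32.0% and 13.8% of glial nuclei and 0.402%, 0.572%, 0.676% and 0.690% of CMs had an Erbb3 UMI, against 0.131% to 0.195% of vascular endothelial nuclei. Erbb2 in glia, at 15.5 ± 10.9 CPM (SD, n = 4), was the highest mean of that gene, but its libraries overlapped with those of pericytes.

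Egfr was highest in fibroblasts, at 1052, 953, 1038 and 924 CPM, a mean of 992 ± 62.9 (SD, n = 4). Fibroblasts held 73.8%, 72.9%, 74.9% and 71.8% of its UMIs in named nuclei, and after thinning 54.9%, 52.2%, 55.1% and 54.4% of them had an Egfr UMI. Pericytes had 354, 351, 414 and 366 CPM and did not overlap with fibroblasts. T and NK cells (337 ± 97.7, n = 2), epicardial nuclei (324 ± 63.1, n = 4) and macrophages (310.5 ± 96.6, n = 4) overlapped with pericytes or with each other (SD in CPM). CMs had the lowest level, at 6.93, 7.03, 6.55 and 6.75 CPM, and vascular endothelial nuclei 17.4, 17.6, 19.2 and 15.03 CPM. Per 100 UMIs of Pdgfra, a fibroblast receptor, there were 184, 167, 145 and 135 Egfr UMIs in fibroblasts and 127, 139, 91.2 and 88.4 in CMs. In pericytes there were 1791, 2141, 2096 and 1806 and in macrophages 1159, 770.0, 1197 and 659, more than in fibroblasts in each library. Other fibroblast markers were not set beside Egfr in this way, and the part of fibroblast transcripts in these classes was not tested.

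In macrophages Egfr stood at 254, 221, 439 and 329 CPM, and the RVVO values were above the sham values with a ratio of the means of 1.62. The log2 fold change was 0.67 with SE 0.22, an unadjusted p of 0.0136 and an adjusted p of 0.593 over 9563 genes (edgeR), so it did not pass the test. Of these genes 0.0941% were called. Without RVVO 1 the log2 fold change was 0.42 with an adjusted p of 0.999999, and over all alternatives it ranged from 0.42 to 0.89 with adjusted p from 0.176 to 0.999999. The fibroblast markers in macrophages summed to 677, 807, 1053 and 1319 CPM, higher in both RVVO libraries, while the pericyte markers summed to 404, 209.5, 265 and 228 CPM. Their part in the result was not tested. After thinning, an Egfr UMI was found in 13.8%, 12.2%, 26.0% and 19.6% of macrophages. The log2 fold change of Egfr in fibroblasts was -0.06 with SE 0.15 (edgeR, adjusted p = 0.999), and the groups overlapped. In pericytes it was 0.14 with SE 0.17 (adjusted p = 0.99995).

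Levels of different genes were also divided by length, as a description only. The counts are UMIs, and whether they rise with the length of a gene or its exons was not tested. The sources do not say whether introns were counted. Per kilobase of exons, Erbb4 in CMs had 189.6 CPM, Nrg1 in endocardial nuclei 151, Egfr in fibroblasts 87.6, Nrg2 in epicardial nuclei 78.3, Erbb3 in glia 40.9, Nrg4 in adipocytes 27.1, Hbegf in glia 6.76 and Erbb2 in glia 2.97. Per kilobase of the whole gene the order changed, with Erbb3 at 11.1, Egfr at 5.98, Hbegf at 3.005, Erbb4 at 2.18, Nrg4 at 1.55, Nrg1 at 1.46, Nrg2 at 1.37 and Erbb2 at 0.612 CPM. Erbb2 was thus the lowest of these 8 genes per kilobase by either length. Nrg3, near 0 in each class, was lower still in lymphatic nuclei, at 0.596 CPM per kilobase of exons and 0.00368 per kilobase of the gene.

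The question of whether RVVO changed these genes was put to each of the 9 classes with at least 20 nuclei in every library. Of 43 pairs of gene and class that passed the filter on low counts, 0 were called by edgeR at an adjusted p under 0.05 and 0 by DESeq2. Of 9 members tested in CMs, 2 were higher and 1 lower in RVVO without overlap of the groups. In endocardial nuclei 1 was higher and 1 lower of 4, and in macrophages 1 was higher and 0 lower of 3. With 2 libraries a group, such separation can arise without a difference, and its share over all genes is not given here. The genes called among all genes were 0.0486% in CMs, 0.0736% in endocardial, 0.0842% in epicardial, 0.0929% in fibroblast, 0.107% in glial, 0.109% in lymphatic, 0.0941% in macrophage, 0.0816% in pericyte and 0.18% in vascular endothelial nuclei. With DESeq2 the shares were, in the same order, 0.437%, 0.158%, 0.126%, 0.341%, 0.0714%, 0.109%, 0.178%, 0.133% and 0.877%. Of the called genes 6 of 7 in CMs, 6 of 7 in endocardial nuclei and 6 of 23 in vascular endothelial nuclei lay on the X or Y chromosome. At an unadjusted p under 0.05 there were 5 of the 43 pairs with edgeR, where the shares of all genes were, in the same order, 5.7%, 4.37%, 2.42%, 4.17%, 5.57%, 5.1%, 6.2%, 4.39% and 6.05%. These were Nrg1 in endocardial nuclei, Hbegf in CMs and Egfr in macrophages, described above, and 2 pairs with under 20 UMIs in some library. The latter were Egfr in lymphatic nuclei, at 32.8, 21.5, 59.8 and 68.1 CPM from 11, 5, 29 and 16 UMIs, and Nrg1 in pericytes, at 4.49, 3.04, 9.88 and 10.1 CPM from 5, 5, 12 and 8 UMIs. In simulated data with 2 libraries a group a change of 1 on the log2 scale was recovered for 26% of genes in CMs (14413 genes) and 41% in endocardial nuclei (9505 genes), and a change of 2 for 88% and 92%.

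**Figure D5:**
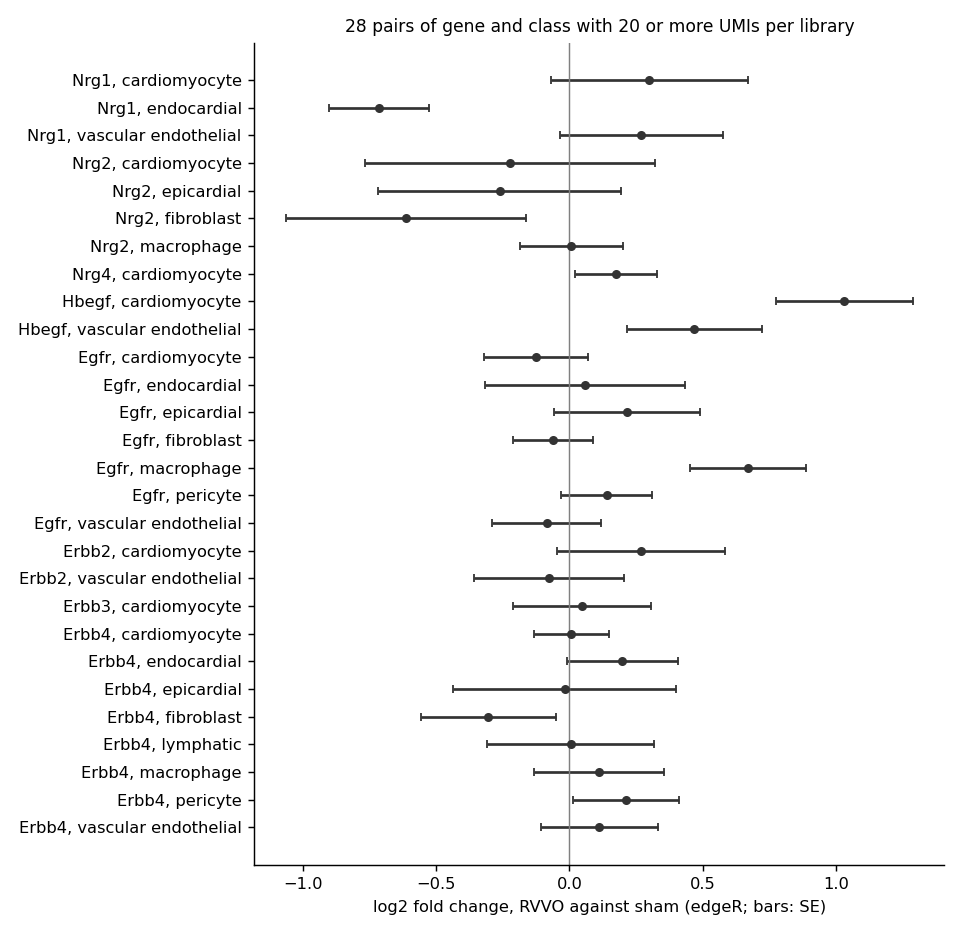
log2 fold change of RVVO against sham (points) with its SE (bars) from edgeR for the 28 pairs of gene and class with at least 20 UMIs in every library. Nrg1 in endocardial nuclei lies lowest at -0.71, and Hbegf in CMs (1.03) and Egfr in macrophages (0.67) lie highest, and none passed the adjusted threshold.

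The wider pathway was described by 57 genes: other ligands of the EGF family, proteases that release ligands, adaptors and PI3K, Ras and MAPK, and inhibitors and feedback regulators of the receptors. Over the 9 classes 407 pairs of gene and class were tested, and none was called in either direction. In CMs 51 of 57 were tested, with a median log2 fold change of 0.01 against 0.00 over all genes, and in endocardial nuclei 49 with -0.05 against 0.01. At an unadjusted p under 0.05 (edgeR) there were 14 of the 407 pairs, where the shares of all genes were 2.42% to 6.2% over the classes. The pairs were not tested as a set. The share of the pathway pairs lay within that range. The genes named next were chosen from these pairs after their values were seen, outside the rule for named genes given below. They are thus not read as a result about the pathway. Errfi1, a feedback inhibitor of EGFR and ErbB2 that their signalling induces, was among these pairs in 2 classes. It stood at 52.7, 33.7, 90.5 and 61.4 CPM in endocardial nuclei (log2 fold change 0.78, adjusted p = 0.999) and at 24.9, 36.0, 71.1 and 69.4 CPM in epicardial nuclei (1.13, adjusted p = 0.9995). The epicardial value of sham 1 rests on under 20 UMIs, the minimum for a pair reported in full. Lrig1, which marks ErbB receptors for degradation, stood at 163, 181, 137 and 99.9 CPM in endocardial nuclei (-0.56, adjusted p = 0.999). Btc, a ligand of EGFR and ErbB4, stood at 1.47, 2.40, 4.67 and 4.56 CPM in CMs (1.18, adjusted p = 0.833), and Akt2 at 92.5, 85.0, 59.4 and 54.2 CPM (-0.70, adjusted p = 0.766). These edgeR values did not pass the test.

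The genes whose levels over the 13 classes were most like those of a member were found by the correlation of log2(mean CPM + 1), among genes with at least 10 CPM in a class. The points share libraries and depth, so the coefficients are descriptions. Erbb4 was most like Fhod3 (r = 0.989), a sarcomeric formin, Esrrb (0.966) and Rbm20 (0.956), a splicing factor of CMs, all highest in CMs. Nrg1 was most like Ahsg (0.930), Vwf (0.906), the von Willebrand factor of endothelium, and Add2 (0.882), all highest in endocardial nuclei. Egfr was most like Lrp1 (0.936), Egfros (0.923), which lies on the other strand of the same locus, and Dtx4 (0.921). Erbb3 was most like Adamts20 (0.960), Adcy1 (0.943) and K230010J24Rik (0.939), all highest in glia. Nrg2 was most like Bst1 (0.922), Mfsd7a (0.897) and Slc7a15 (0.894), all highest in epicardial nuclei, and Nrg4 like Gm10644 (0.931), Mccc1os (0.908) and Slc36a2 (0.904), all highest in adipocytes. Nrg3, Hbegf and Erbb2, which were low everywhere, were most like Ell (0.902), Adgrg3 (0.870) and Wdr33 (0.864), like Pa2g4 (0.894), Mif (0.877) and Cryab (0.860), and like Zfp37 (0.922), Rhebl1 (0.907) and Psmd6 (0.904).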

How the data were processed

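Nuclei of 2 sham and 2 RVVO libraries were profiled with 10x 3′ chemistry version 3. The deposited files hold UMI counts per gene and barcode that the authors made from their reads. The file headers name Cell Ranger 5.0.0, and the submitters' processing notes list Cell Ranger 3.0.1, STAR, Seurat 3.0.2, GRCm38 and mm10. The sources used here do not state the use of introns or strand in counting. Of the 27998 gene IDs, 27722 were in the GENCODE M21 annotation.

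A barcode was kept if it had 200 or more genes and less than 10% of its UMIs from mitochondrial genes, and those with the highest Scrublet scores were removed (0.8% per 1000 barcodes). Counts were scaled to 10000 per nucleus and log transformed, and nuclei were clustered with scanpy 1.11.5 (2000 variable genes, 30 principal components, 15 neighbours, Leiden resolution 1), without the 9 genes and sex-linked, mitochondrial and ribosomal genes. Clusters were named by marker lists with thresholds set after the clusters were seen. The members and lists were chosen with earlier results of these data known.

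Counts were summed per library and class and tested with edgeR 4.0.16 (quasi-likelihood, TMM, filter on low counts, R 4.3.3), with Benjamini-Hochberg adjustment over all genes of a class and a threshold of 0.05. Pairs of gene and class with at least 20 UMIs in every library were reported in full. Both tails were tested. Genes named besides the 9 were to be those of the pathway list that passed the test, and the 3 with the pattern most like each member. The test was tried on simulated data, in which 9.52% of the calls in CMs and 7.64% in endocardial nuclei were false. Alternatives were DESeq2 1.42.0, RLE normalization, no filter, no doublet removal, a common floor of 1561 UMIs, a replicate block, each library left out, and the endocardium set by Npr3 or Tmem108 UMIs.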

Additional observations from a re-analysis of the deposited data

How the results depend on the processing

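Of the 28 pairs of gene and class with at least 20 UMIs in every library, 11 kept the direction of their log2 fold change in every alternative and 17 did not. The latter had absolute log2 fold changes of at most 0.30. No member was called in any class except Nrg1 in endocardial nuclei without the filter on low counts, which made 1 member called in that class and 1 over all classes. In that class and setting 118 of 17448 genes were called. Of the differences of the RVVO effect between classes, 1 was called with the endocardium set by Npr3 or Tmem108 UMIs, and 0 to 1 with a library left out. Over the classes the number of genes called was 3 to 23, and it was 2 to 112 with DESeq2, 13 to 191 without the filter and 0 to 125 with a library left out. The cause was not tested. Replicate numbers were shared between groups. The correlations of same-numbered libraries were -0.06 to 0.27 over the classes, highest in epicardial nuclei, and the main tests did not pair them. Tissue make-up did go with the number. Adipocytes numbered 0 and 2 in sham 1 and RVVO 1, against 40 and 46 in sham 2 and RVVO 2. Epicardial nuclei numbered 90 and 124 against 397 and 503. The main fold changes do not take account of this, and its cause was not tested. With the replicate block no call of a member changed, the number of genes called was 2 to 38 over the classes, and the log2 fold change of Erbb4 in epicardial nuclei was 0.0934. That value was 0.0160 with the common UMI floor and 0.26 without doublet removal. Erbb4 in lymphatic nuclei was at -0.00637 with DESeq2, -0.296 without doublet removal and -0.00913 without the filter. Nrg2 in macrophages was at -0.0554 with the common floor, Erbb4 in vascular endothelial nuclei at -0.0633 without doublet removal, Erbb2 in vascular endothelial nuclei at 0.00075 with the Npr3 or Tmem108 rule, and the difference of Erbb4 between endocardial and vascular endothelial nuclei at -0.00555 with the common floor. With each library left out, log2 fold changes in CMs ranged from -0.11 to 0.82 for Nrg1, -0.84 to 0.95 for Nrg2, -0.23 to 0.29 for Erbb3 and -0.0896 to 0.108 for Erbb4. In endocardial nuclei Egfr ranged from -0.58 to 0.53, and in epicardial nuclei Nrg2 from -0.998 to 0.25, Egfr from -0.0496 to 0.57 and Erbb4 from -0.52 to 0.84. In fibroblasts Egfr ranged from -0.175 to 0.0573 and Erbb4 from -0.65 to 0.19. Erbb4 ranged from -0.37 to 0.42 in lymphatic nuclei, -0.23 to 0.41 in macrophages and -0.0143 to 0.521 in pericytes, and Nrg2 in macrophages from -0.11 to 0.14. In vascular endothelial nuclei Egfr ranged from -0.30 to 0.10, Erbb2 from -0.26 to 0.11 and Erbb4 from -0.14 to 0.41. The difference between CMs and fibroblasts ranged from -0.178 to 0.0764 for Egfr, -0.13 to 0.63 for Erbb4 and -0.26 to 1.61 for Nrg2, and that between endocardial and vascular endothelial nuclei from -0.30 to 0.42 for Egfr and -0.11 to 0.23 for Erbb4. With 1 library left in a group, its spread is assumed to be that of the other group.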
